A study of Mus musculus with 6 samples.

Results

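The genes described here are 43 interferon-stimulated genes, a wider module beside a core antiviral list of 13 genes, and they were followed in single mouse macrophages with and without the cohesin subunit Rad21. They were chosen by name from a fixed list, with earlier results of these data known. All 43 were rows of the count matrix, which holds 18429 genes. Each was followed on its own and as the summed share of the UMIs of a cell. A UMI (unique molecular identifier) marks 1 captured transcript, and MARS-seq, a plate-based method, counted UMIs in singly sorted cells. Bone marrow-derived macrophages were grown from mice with wild-type or floxed Rad21 alleles, on a mixed background that includes C57BL/6. The floxed alleles were deleted in culture, and the cells that lost them are called Rad21-/-. Cells of both genotypes carried the tamoxifen-inducible Cre at Rosa26 (creERT2/creERT2) and received 200 nM 4-hydroxytamoxifen 96 h after plating, so that wild-type cells carried the same Cre and drug without the floxed Rad21 allele. On day 7 they received either no stimulus or LPS, a bacterial cell wall component, at 10 ng/ml for 2 or 8 h. This gives 6 samples with 1 sample for each genotype and time, and therefore no test between them: every interval below is at 95% and covers counting error only. Levels are UMIs per 1000000 UMIs of the sample, written CPM.

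After 17 wells with more than 25000 UMIs were left out, 1345 of 1362 cells remained, with between 181 and 267 cells and between 1197415 and 1734640 UMIs per sample. The median cell held between 5544 and 7043 UMIs, and the deepest median belonged to Rad21-/- cells at 8 h. The wells left out held 45.5% of the UMIs of wild-type cells at 2 h and between 1.71 and 16.96% of those of the other 5 samples. Rad21 itself was at 64.3, 50.9 and 34.1 CPM in wild-type cells and 5.46, 8.01 and 6.92 in Rad21-/- cells, in the order untreated, 2 h and 8 h. The level of Rad21 was thus lower in all 3 Rad21-/- samples than in any wild-type sample. Of 8 macrophage markers, between 5 and 7 were found in over 50% of the cells of each sample, Lyz2 and Cd68 among them, and the 2 neutrophil markers in the matrix were in at most 0.543% of the cells of the untreated and 2 h samples and in up to 3.95% of wild-type and 7.21% of Rad21-/- cells at 8 h. The mast cell marker Kit was in 17.9 to 29.7% of cells. Dendritic markers were in at most 16.02% of the cells of a sample, stromal markers in 14.1%, B cell markers in 9.24% and the 1 T and NK cell marker in 8.56%. Of the listed markers, the matrix held 2 of 6 dendritic, 4 of 5 stromal, 2 of 5 B cell and 1 of 5 T and NK cell. It also held 2 of 7 neutrophil, 2 of 5 mast cell and basophil and 0 of 5 erythroid markers. The least common macrophage marker was in 4.05 to 11.8% of cells. Summed macrophage markers were at 9505, 10636 and 7817 CPM in wild-type cells and 6214, 6879 and 6306 in Rad21-/- cells. The part of these markers in the results was not tested.

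Type I interferons bind a receptor on the cell surface and switch on a large group of genes through transcription factors, interferon regulatory factors among them, that bind a repeated GAAA motif called the interferon-stimulated response element. In macrophages exposed to LPS, interferon beta made by the cells acts back on them, and the induced proteins detect viral RNA and DNA, block translation or the release of virus, and tag proteins with ubiquitin or ADP-ribose. Cohesin, of which Rad21 is a subunit, is a ring-shaped complex that folds chromatin into loops. The members were grouped by known role into RNA sensors (5 genes), double-stranded RNA effectors (7), ADP-ribosylation and ubiquitin genes (9), nuclear and DNA-associated genes (6), restriction and Schlafen genes (6) and other members (10).

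Promoters were available for 34 of the 43 members, as 300 bases per start site (250 before and 50 after it) from RefSeq on GRCm38.p6. Tor3a, Parp9, Dhx58, Zbp1, Rtp4, Ifi204, Oas2, Parp10 and Parp14 had no entry in that table. The core of the response element was searched as GAAANNGAAA on both strands. That core was in a promoter of 13 of the 34 members (38.2%) and of 3.99% of the 27025 genes in the same table. They were Bst2, Ddx58, Ddx60, Eif2ak2, Ifih1, Mndal, Oas1a, Oas3, Ogfr, Slfn5, Slfn8, Trim21 and Trim30a. A gamma-activated site, searched as TTCCNGGAA, was in 1 member, Bst2, and in 1.35% of all genes, and a kappaB site, searched as GGGNNTTTCC, was in 0 of the 34 and in 1.89% of all genes. A match is a stretch of letters and does not show that a factor binds there. The promoters of 6 members named in the results below are printed 5′ to 3′ along each gene, with matches to the response element in capitals. Whether a match goes with the level of a gene was not tested. Bst2, which gave the most UMIs, and Oas1a each held 2 matches that overlap, Mndal and Ifih1 held 1 each in the window shown, and Slfn2 and Ms4a4c held none. Their windows are chr8:71537423-71537722 (minus strand) for Bst2, chr5:120907476-120907775 (minus strand) for Oas1a, chr1:173879909-173880208 (minus strand) for Mndal, chr2:62646206-62646505 (minus strand) for Ifih1, chr11:83064862-83065161 (plus strand) for Slfn2 and chr19:11407411-11407710 (plus strand) for Ms4a4c.
Bst2: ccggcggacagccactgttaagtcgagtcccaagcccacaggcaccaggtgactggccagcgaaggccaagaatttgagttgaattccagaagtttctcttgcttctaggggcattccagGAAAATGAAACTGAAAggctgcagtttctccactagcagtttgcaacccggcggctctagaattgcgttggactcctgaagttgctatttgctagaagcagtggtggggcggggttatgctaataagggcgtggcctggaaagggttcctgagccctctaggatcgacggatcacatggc
Oas1a: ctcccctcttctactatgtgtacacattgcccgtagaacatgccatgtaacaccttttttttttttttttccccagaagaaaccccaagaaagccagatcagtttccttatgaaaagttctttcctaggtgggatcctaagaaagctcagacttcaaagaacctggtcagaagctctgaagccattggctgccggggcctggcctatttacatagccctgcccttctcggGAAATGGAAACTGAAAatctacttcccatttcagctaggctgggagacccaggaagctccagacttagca
Mndal: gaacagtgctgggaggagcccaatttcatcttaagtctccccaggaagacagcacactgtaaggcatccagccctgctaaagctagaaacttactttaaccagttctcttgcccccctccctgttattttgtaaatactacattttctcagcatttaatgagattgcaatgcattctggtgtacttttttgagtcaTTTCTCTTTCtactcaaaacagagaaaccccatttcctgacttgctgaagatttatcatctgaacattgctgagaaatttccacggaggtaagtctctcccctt
Ifih1: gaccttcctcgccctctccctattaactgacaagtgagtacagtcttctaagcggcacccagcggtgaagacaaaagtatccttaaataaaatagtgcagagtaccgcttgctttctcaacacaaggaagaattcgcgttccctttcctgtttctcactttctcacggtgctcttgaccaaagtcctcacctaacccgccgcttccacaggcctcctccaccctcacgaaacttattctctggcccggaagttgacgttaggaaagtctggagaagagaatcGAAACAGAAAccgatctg
Slfn2: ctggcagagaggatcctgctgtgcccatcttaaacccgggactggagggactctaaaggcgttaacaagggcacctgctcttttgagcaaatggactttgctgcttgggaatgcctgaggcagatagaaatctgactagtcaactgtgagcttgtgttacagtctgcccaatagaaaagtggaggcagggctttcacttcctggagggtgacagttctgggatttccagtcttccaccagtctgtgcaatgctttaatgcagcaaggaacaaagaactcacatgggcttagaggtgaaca
Ms4a4c: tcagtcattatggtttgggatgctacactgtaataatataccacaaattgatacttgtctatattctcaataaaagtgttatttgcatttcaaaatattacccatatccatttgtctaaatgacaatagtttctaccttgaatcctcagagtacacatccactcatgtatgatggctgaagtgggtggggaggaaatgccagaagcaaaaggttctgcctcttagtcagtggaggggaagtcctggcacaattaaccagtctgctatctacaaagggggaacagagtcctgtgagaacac
The capitals of Bst2 begin 130 bases before the start site, those of Oas1a 20 bases before it and those of Mndal 54 bases before it. In Ifih1 they begin 32 bases after it. Mndal has a second listed start site, whose window holds a match that begins 36 bases before it.

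The first question was how much of the transcriptome the module took up in each sample. The 43 genes together made up 0.480% (0.469 to 0.491) of all UMIs in untreated wild-type cells, 0.509% (0.496 to 0.521) after 2 h of LPS and 1.23% (1.21 to 1.25) after 8 h. Their share of the UMIs of Rad21-/- cells was 0.239% (0.232 to 0.246) without LPS, 0.311% (0.302 to 0.321) after 2 h and 0.618% (0.606 to 0.630) after 8 h. The wild-type sample was the higher at each time. The share in Rad21-/- cells at 8 h was above that of untreated and 2 h wild-type cells and under that of wild-type cells at 8 h. On the log2 scale, the sum differed between untreated and 2 h by 0.08 (interval 0.03 to 0.13) in wild-type and 0.38 (interval 0.32 to 0.45) in Rad21-/- cells, and between untreated and 8 h by 1.36 (interval 1.32 to 1.40) and 1.37 (interval 1.32 to 1.42). The 2 h value of wild-type cells depended on the processing: it was 0.252 with all wells, 0.190 when scaled by the median ratio of all genes, and 0.0204 and 0.0223 without 1 of the untreated or 1 of the 2 h pools. The log2 ratio of Rad21-/- over wild-type cells was -1.006 (interval -1.06 to -0.95) untreated, -0.71 (interval -0.77 to -0.65) at 2 h and -0.99 (interval -1.03 to -0.96) at 8 h.

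Bst2, which encodes tetherin, a protein that holds budding virus at the cell surface, gave the most UMIs of any member in every sample, between 12.8 and 26.6% of the module's UMIs. The level of Bst2 was 1158, 929.5 and 1569 CPM in wild-type cells and 636, 590.4 and 1039 in Rad21-/- cells. In each genotype it was lowest at 2 h, and wild-type levels were higher at each time. In Rad21-/- cells the interval of its ratio of 2 h over untreated included 0. When the 5 members with the most UMIs were left out, the Rad21-/- over wild-type log2 ratio of the sum was -1.16 (interval -1.25 to -1.08) untreated, -0.93 (interval -1.02 to -0.85) at 2 h and -1.09 (interval -1.14 to -1.05) at 8 h, so that the sums differed between genotypes without those genes too.

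Cells of 1 sample were spread around their median by more than counting. Untreated wild-type cells gave the module a median of 0.465% of a cell's UMIs (10th to 90th percentile 0.303 to 0.690), those given LPS for 2 h a median of 0.486% (0.290 to 0.788) and those given it for 8 h a median of 1.23% (0.894 to 1.57). The medians of Rad21-/- cells in the same order were 0.229% (0.134 to 0.359), 0.304% (0.170 to 0.467) and 0.602% (0.409 to 0.803). The variance between cells was 2.01 to 4.13 times the variance that counting alone gives at the depth of these cells. Distributions of the genotypes overlapped little at 8 h, where 211 of 222 Rad21-/- cells (95.05%) lay under the wild-type 10th percentile. In untreated cells 213 of 267 (79.8%) did so, and at 2 h 85 of 184 (46.2%). With each cell thinned at random to 3800 UMIs these shares were 93.03, 70.0 and 40.8%. A thinned wild-type cell had UMIs of a median of 10 members untreated, 12 at 2 h and 23 at 8 h, against 6, 7 and 15 in Rad21-/- cells.

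**Figure D1:**
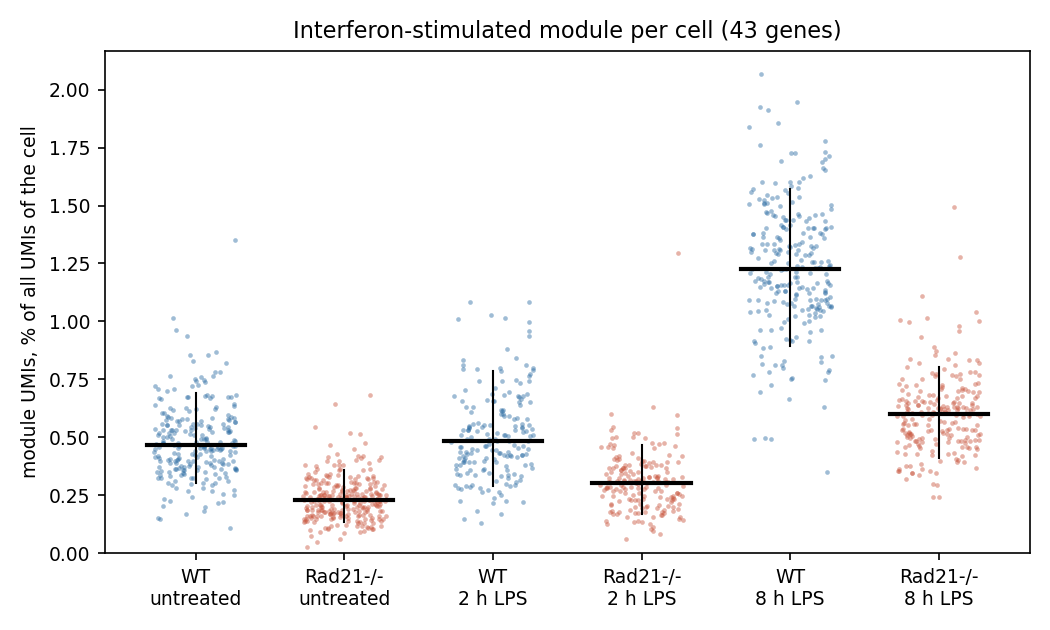
Module UMIs as a percentage of all UMIs of each cell (vertical axis) in the 6 samples, with 1 point per cell, a horizontal bar at the median and a vertical line from the 10th to the 90th percentile. The median was 1.23% in wild-type and 0.602% in Rad21-/- cells at 8 h, and 0.465% and 0.229% untreated.

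The cells came from 24 library pools, each of 1 time, and 23 of the pools held both genotypes. Library pool is the only batch that the labels of the cells give, so the genotypes were also compared inside pools with at least 10 cells of each. The module's log2 ratio of Rad21-/- over wild-type cells was below 0 in 8 of 8 untreated pools (-1.37 to -0.80), in 4 of 4 pools at 2 h (-1.11 to -0.47) and in 6 of 6 pools at 8 h (-1.11 to -0.86). Within a pool, 35 to 42 of the 43 members were lower in Rad21-/- cells untreated, 34 to 39 at 2 h and 39 to 42 at 8 h. Over whole samples, 54.6, 46.2 and 35.1% of all genes tested were lower by any amount at these times. The share over all genes was not taken within pools. The pools are not replicate cultures, and time cannot be told apart from pool.

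**Figure D2:**
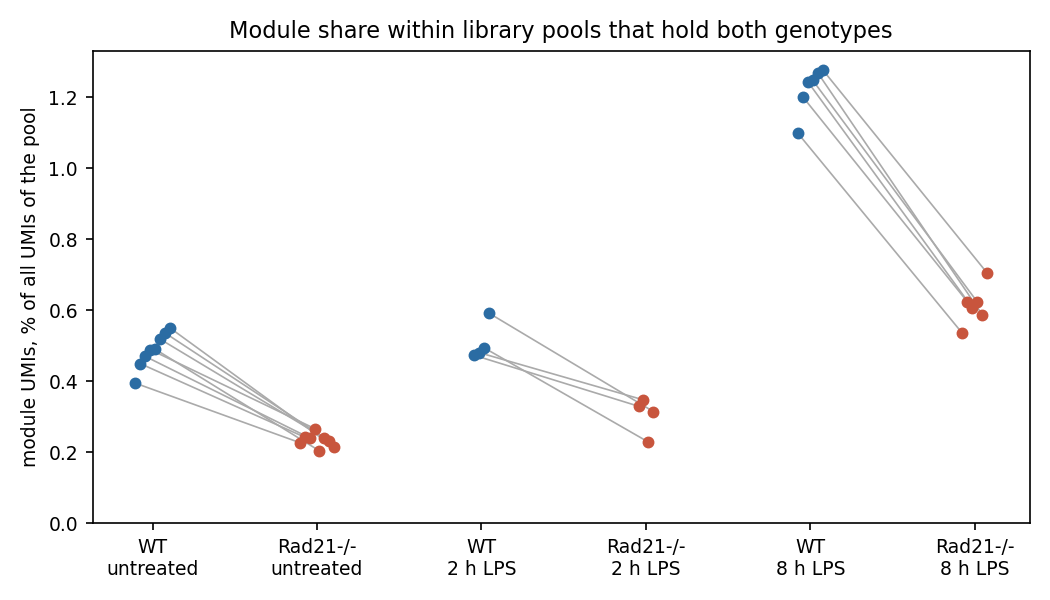
Module UMIs as a percentage of all UMIs (vertical axis) of wild-type (blue) and Rad21-/- (red) cells in each library pool with at least 10 cells of both genotypes, with a line joining the 2 genotypes of a pool. The lines of all 8 untreated, 4 of 2 h and 6 of 8 h pools slope down from wild-type to Rad21-/- cells.

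The next question was how the members stood in untreated cells. A ratio was counted as a difference when it was at least 2-fold, among genes with at least 50 UMIs over both samples. In untreated cells 39 members reached that minimum, and 21 of them were at least 2-fold lower in Rad21-/- than in wild-type cells and 0 at least 2-fold higher, while 3.98% of all genes tested were at least 2-fold lower and 1.34% higher. The median log2 ratio of the members was -1.09, against -0.04 over all genes tested. All 39 were lower by some amount, as were 54.6% of all genes. With cells thinned to 3800 UMIs, 13 members were at least 2-fold lower. Thinning left fewer UMIs and so fewer members past the minimum, and the share over all genes was not taken in thinned cells. Without thinning, the 4 members below the minimum were Pnpt1, Trim21, Herc6 and Helz2, which had 8, 13, 18 and 4 UMIs in untreated Rad21-/- cells.

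Among the RNA sensors, Zbp1, which binds Z-form nucleic acids and can start cell death, showed the lowest genotype ratio of the untreated cells. Its level was 155.7, 149 and 375 CPM in wild-type cells and 26.1, 32.0 and 225 in Rad21-/- cells. The log2 ratio of Rad21-/- over wild-type cells was -2.58 (interval -3.08 to -2.10) untreated and -0.74 (interval -0.93 to -0.55) at 8 h, so the genotypes were closest at 8 h. Ddx58, the sensor RIG-I, was at 94.1, 81.01 and 181 CPM in wild-type cells and 47.9, 40.1 and 130.9 in Rad21-/- cells. Its untreated ratio was -0.97 (interval -1.39 to -0.56).

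Oas3 and Oasl2 belong to the oligoadenylate synthetase family, whose enzymes activate an RNase on contact with double-stranded RNA; Oasl2 is a synthetase-like member. The level of Oas3 was 107.9, 126 and 187 CPM in wild-type cells and 33.98, 51.3 and 140.1 in Rad21-/- cells. The level of Oasl2 was 102, 107 and 188 CPM in wild-type cells and 24.9, 24.8 and 95.1 in Rad21-/- cells. For both genes, untreated and 2 h Rad21-/- cells lay far under every other sample, with untreated log2 ratios of -1.67 (interval -2.13 to -1.22) and -2.03 (interval -2.57 to -1.52). Ifi44, a cytoplasmic interferon-induced protein, was at 45.7, 49.3 and 214 CPM in wild-type cells and 9.71, 10.41 and 92.8 in Rad21-/- cells. Its untreated ratio was -2.23 (interval -3.12 to -1.43). The smallest genotype differences among members that passed were in Dtx3l (-0.39), an E3 ubiquitin ligase, Parp12 (-0.44), Ddx60 (-0.46), a helicase, Oas2 (-0.51) and Lgals3bp (-0.52), a secreted glycoprotein, and the intervals of the first 4 included 0.

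At 2 h of LPS, most members stood where they had been. In wild-type cells 3 of 41 members that reached the minimum were at least 2-fold higher than untreated and 0 at least 2-fold lower, beside 3.33% higher and 3.08% lower over all genes. Of Rad21-/- cells' 33 members past the minimum, 3 were at least 2-fold higher and 0 lower, beside 3.39% and 1.94%. The 3 were Slfn2, Ifih1 and Helz2 in wild-type cells and Slfn2, Ifih1 and Parp14 in Rad21-/- cells. The median log2 ratio was 0.05 in wild-type cells, where the median of all genes was -0.11, and 0.18 in Rad21-/- cells, where it was -0.03.

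Slfn2, a Schlafen family gene active in immune cells, was the clearest of the early genes. It was at 197, 461 and 618 CPM in wild-type cells and 69.2, 515 and 444 in Rad21-/- cells. The wild-type level at 2 h was 2.34 times the untreated level and the Rad21-/- level 7.45 times, and the genotypes, which differed by -1.51 (interval -1.84 to -1.19) on the log2 scale untreated, differed by 0.16 (interval -0.01 to 0.33) at 2 h. Among the 38 members that passed at 2 h it was the only one not lower in Rad21-/- cells. In thinned cells the share with a UMI of Slfn2 was 43.5% of wild-type and 22.7% of Rad21-/- cells untreated, and 76.2% and 83.6% at 2 h.

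Ifih1, the sensor MDA5, was at 28.4, 75.2 and 199 CPM in wild-type cells and 13.4, 70.5 and 119.9 in Rad21-/- cells. Its log2 ratio of 2 h over untreated was 1.41 (interval 0.86 to 1.98) in wild-type and 2.40 (interval 1.71 to 3.15) in Rad21-/- cells, and at 2 h the genotypes differed by -0.09 (interval -0.53 to 0.35). For Ifih1 and Slfn2 the interval of the genotype ratio at 2 h thus included 0. With the deep wells kept, that ratio was -0.47 for Ifih1 and 0.01 for Slfn2. Parp14, a mono-ADP-ribosyltransferase, was at 127, 242 and 361 CPM in wild-type cells and 46.1, 116.2 and 209 in Rad21-/- cells. Its 2 h ratio was 0.94 (interval 0.66 to 1.21) in wild-type and 1.33 (interval 0.92 to 1.75) in Rad21-/- cells, and it stayed lower in Rad21-/- cells, by -1.06 (interval -1.36 to -0.77) at 2 h. Helz2, a helicase that acts as a transcriptional coactivator, was at 17.99, 56.8 and 134 CPM in wild-type cells and 2.43, 15.2 and 27.1 in Rad21-/- cells. The 2 h ratio of Helz2 was 1.66 (interval 0.99 to 2.37) in wild-type cells, and in Rad21-/- cells it rested on 19 UMIs at 2 h and 4 untreated.

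The lowest 2 h ratios in wild-type cells belonged to Dhx58 (-0.62, interval -1.204 to -0.05), the sensor LGP2, Eif2ak2 (-0.60, interval -1.14 to -0.08), the kinase PKR that halts translation, Nmi (-0.58, interval -1.26 to 0.08), Slfn8 (-0.50, interval -1.07 to 0.06) and Xaf1 (-0.41, interval -0.88 to 0.04). All 5 were within 2-fold, and with the deep wells kept the ratios of Dhx58, Eif2ak2 and Slfn8 were above 0, at 0.25, 0.02 and 0.43. The corresponding Rad21-/- ratios were -0.40, -0.36, 0.18, 0.76 and -0.39. Phf11d was at 71.3, 65.98 and 329.7 CPM in wild-type cells and 22.5, 16.8 and 116.5 in Rad21-/- cells, and Trim25, an E3 ligase of the RIG-I pathway, was at 87.2, 67.6 and 239.7 CPM in wild-type cells and 51.0, 41.7 and 108.4 in Rad21-/- cells. Both lay slightly lower at 2 h than untreated in each genotype, and the intervals of these ratios included 0. Eif2ak2 overlaps other annotated genes, Gm6548 with 544 UMIs among them, and how reads were divided between them was not tested.

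Between genotypes at 2 h, 17 of 38 members were at least 2-fold lower in Rad21-/- cells and 0 at least 2-fold higher, where 4.62% of all genes were at least 2-fold lower and 2.75% higher. Lower by any amount were 37 of the members and 46.2% of all genes. The lowest ratios were those of Ifi44 (-2.24, interval -3.23 to -1.36), Zbp1 (-2.22, interval -2.75 to -1.72), Oasl2 (-2.11, interval -2.72 to -1.53), Phf11d (-1.97, interval -2.74 to -1.26) and Daxx (-1.94, interval -2.84 to -1.13). At the other end, after Slfn2 and Ifih1, stood Parp12 (-0.15), Slfn8 (-0.16) and Dtx3l (-0.21), whose intervals included 0. Slfn8 was at -1.18 when the deep wells were kept. In that case the count of members at least 2-fold lower was 26, and in thinned cells it was 9. The share over all genes was not taken in either setting, and thinning left fewer UMIs to reach the minimum.

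**Figure D3:**
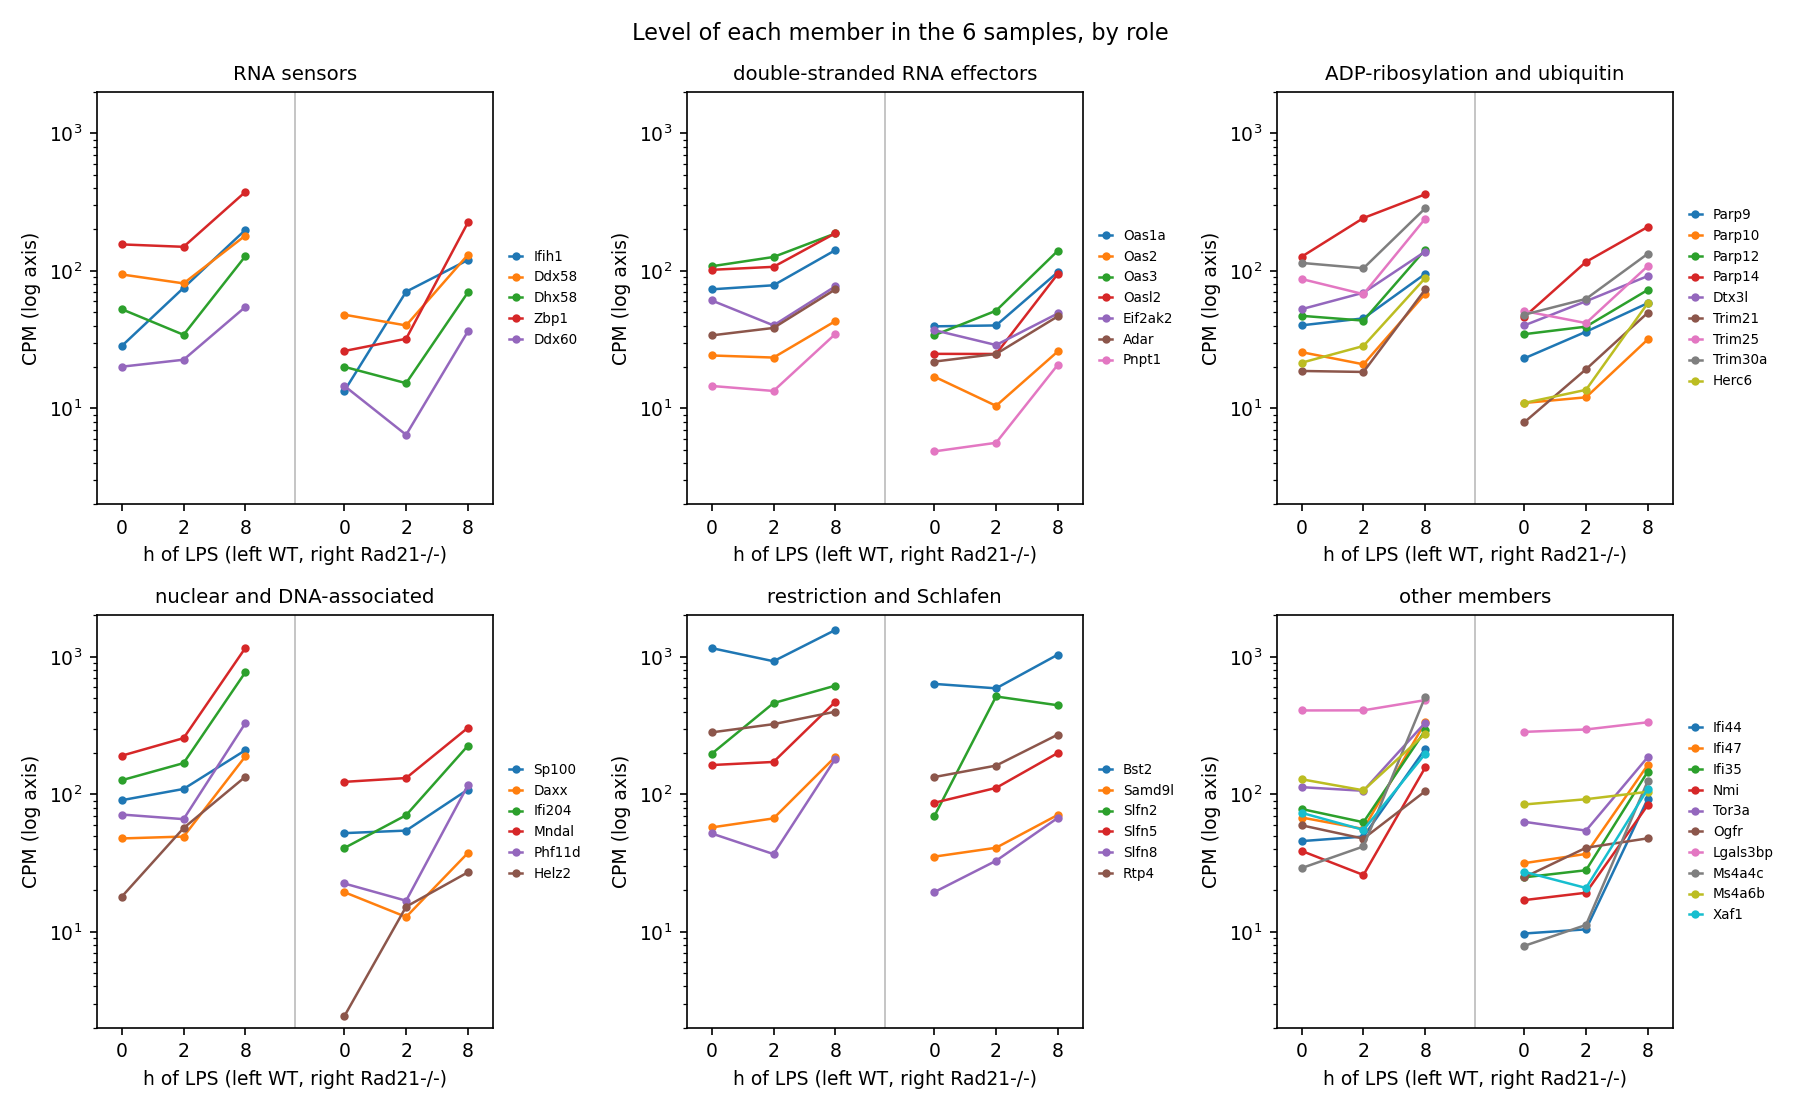
CPM (log axis) of each of the 43 members against hours of LPS, in 6 panels by role, with wild-type samples on the left and Rad21-/- samples on the right of each panel. Each line is 1 gene, the times are evenly spaced, and the level at 8 h in wild-type cells was the highest of the 6 samples for all 43 members. That order was not counted over all genes.

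At 8 h of LPS the module was higher as a whole. In wild-type cells 33 of 43 members were at least 2-fold higher than untreated and 0 lower, beside 7.54% of all genes higher and 15.4% lower. Of the 42 that reached the minimum in Rad21-/- cells, 35 were at least 2-fold higher and 0 lower, beside 6.61% and 5.85%. The median log2 ratio of the members was 1.44 in wild-type cells and 1.51 in Rad21-/- cells. Over all genes the median was -0.24 and -0.02, so the wild-type ratios stand against a lower baseline. Most of the difference lay after 2 h: from 2 to 8 h, 30 of 43 members were at least 2-fold higher in wild-type cells and 0 lower, beside 7.3% and 9.81% of all genes, and 25 of 42 were higher in Rad21-/- cells and 0 lower, beside 5.47% and 4.56%. Wild-type cells at 8 h held the highest level of the 6 samples for 43 of 43 members, and the lowest was in untreated Rad21-/- cells for 31 members and in 2 h Rad21-/- cells for 12. The order of the samples was not counted over all genes.

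By role, the nuclear and DNA-associated genes had the highest wild-type median at 8 h, 2.41 over 6 genes, and the double-stranded RNA effectors the lowest, 0.88 over 7. In Rad21-/- cells these medians were 1.84 over 6 and 1.204 over the 6 that passed. The RNA sensors stood at 1.28 and 1.80, the ADP-ribosylation and ubiquitin genes at 1.46 and 1.47, the restriction and Schlafen genes at 1.59 and 1.12 and the other members at 1.73 and 2.15. All 9 ADP-ribosylation and ubiquitin genes were at least 2-fold higher at 8 h in both genotypes. Of the double-stranded RNA effectors 2 of 7 were so in wild-type cells, Adar, which edits adenosines in RNA, and Pnpt1, an exoribonuclease of mitochondria. Adar was at 33.9, 38.4 and 73.3 CPM in wild-type cells and 21.8, 24.8 and 46.7 in Rad21-/- cells, and Oas2, at 24.2, 23.4 and 43.1 CPM in wild-type cells and 16.99, 10.41 and 25.9 in Rad21-/- cells, was among those within 2-fold.

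Of the remaining RNA sensors, Dhx58 was at 52.6, 34.2 and 128 CPM in wild-type cells and 20.03, 15.2 and 69.8 in Rad21-/- cells. Ddx60 was at 20.1, 22.5 and 54.6 CPM in wild-type cells and 14.6, 6.41 and 36.3 in Rad21-/- cells, from 8 UMIs in Rad21-/- cells at 2 h. In both genes wild-type cells at 8 h were highest and Rad21-/- cells at 2 h lowest.

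Ms4a4c, a gene of the MS4A family of membrane proteins, had the highest 8 h ratio in both genotypes. Its level was 29.1, 41.8 and 513 CPM in wild-type cells and 7.89, 11.2 and 125 in Rad21-/- cells. The 8 h ratio was 4.14 (interval 3.69 to 4.63) in wild-type and 3.99 (interval 3.18 to 4.92) in Rad21-/- cells, and the 8 h levels of the genotypes did not come near each other. The neighbouring Ms4a6b, of the same family, was at 128.7, 107 and 276 CPM in wild-type cells and 84.4, 92.1 and 104 in Rad21-/- cells. It was 2.14-fold higher at 8 h in wild-type cells and 1.24-fold in Rad21-/- cells.

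Mndal and Ifi204 encode PYHIN family proteins, which bind DNA and act in the nucleus. The level of Mndal was 191, 256 and 1163 CPM in wild-type cells and 123.2, 131.4 and 305 in Rad21-/- cells. The level of Ifi204 was 127, 168.7 and 774 CPM in wild-type cells and 40.7, 70.5 and 226 in Rad21-/- cells. At 8 h both were far above every other sample in wild-type cells, with a UMI of Mndal in 98.7% of thinned wild-type and 61.7% of thinned Rad21-/- cells. Daxx, a histone chaperone found in nuclear bodies, was at 47.7, 49.3 and 189 CPM in wild-type cells and 19.4, 12.8 and 37.5 in Rad21-/- cells. Its 8 h ratio was 1.98 (interval 1.602 to 2.38) in wild-type and 0.95 (interval 0.32 to 1.61) in Rad21-/- cells, and its Rad21-/- level at 8 h stayed under that of untreated wild-type cells. Sp100, another component of nuclear bodies, was within a narrower range, at 90.6, 109 and 209.5 CPM in wild-type cells and 52.2, 54.5 and 108.4 in Rad21-/- cells.

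Among the enzymes of ADP-ribosylation and ubiquitin transfer, Trim30a, an interferon-induced TRIM protein, was at 114.2, 104 and 285 CPM in wild-type cells and 47.9, 62.5 and 133 in Rad21-/- cells. Trim21, a cytosolic antibody receptor and E3 ligase, was at 18.7, 18.4 and 73.3 CPM in wild-type cells and 7.89, 19.2 and 49.6 in Rad21-/- cells. Trim21 had few UMIs at the first times, 13 in untreated Rad21-/- cells, and at 8 h it was 3.92-fold higher in wild-type and 6.28-fold in Rad21-/- cells. Parp9 and Dtx3l, whose proteins form a complex, overlap in the RefSeq annotation, and Parp9 also overlaps Gm15564, with 450 UMIs; how reads of these genes were divided was not tested. The 8 h ratios of the pair were 1.24 and 1.39 in wild-type cells and 1.34 and 1.19 in Rad21-/- cells. Herc6, a ligase for ISG15 in mice, had 2.05 and 2.41. Parp12, a mono-ADP-ribosyltransferase, was at 47.05, 43.4 and 143 CPM in wild-type cells and 34.6, 39.3 and 72.6 in Rad21-/- cells, and Parp10, another, was at 25.6, 20.9 and 68.1 CPM in wild-type cells and 10.9, 12.02 and 31.7 in Rad21-/- cells. In both, Rad21-/- cells at 8 h lay above untreated wild-type cells and under wild-type cells at 8 h.

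Of the other Schlafen genes, Slfn5 was at 163.3, 172.04 and 471 CPM in wild-type cells and 86.8, 111 and 200.04 in Rad21-/- cells. Its 8 h ratio was 1.53 (interval 1.31 to 1.75) in wild-type and 1.205 (interval 0.92 to 1.496) in Rad21-/- cells, and its 2 h ratio in wild-type cells was 0.08, or 0.71 with the deep wells kept. Samd9l was at 57.4, 66.8 and 188 CPM in wild-type cells and 35.2, 40.9 and 70.9 in Rad21-/- cells. Both genes were more than 2-fold lower in Rad21-/- than in wild-type cells at 8 h and within 2-fold in untreated cells.

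Ifi35 and Nmi, whose proteins bind each other, followed a like course. Ifi35 was at 78.2, 62.6 and 292 CPM in wild-type cells and 24.9, 28.04 and 146 in Rad21-/- cells. Nmi was at 38.7, 25.9 and 157 CPM in wild-type cells and 16.99, 19.2 and 83.6 in Rad21-/- cells. Xaf1, which binds an inhibitor of apoptosis, was at 73.3, 55.1 and 197 CPM in wild-type cells and 27.3, 20.8 and 109.5 in Rad21-/- cells. All 3 were lower at 2 h than untreated in wild-type cells, with intervals that included 0, and higher at 8 h in both genotypes. Ifi47, an interferon-inducible GTPase, was at 67.8, 56.0 and 334 CPM in wild-type cells and 31.6, 36.8 and 164 in Rad21-/- cells, with 8 h ratios of 2.30 in wild-type and 2.38 in Rad21-/- cells.

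Lgals3bp, Eif2ak2, Bst2 and Rtp4 had the lowest 8 h ratios of wild-type cells. Lgals3bp was at 408, 408 and 485 CPM in wild-type cells and 285, 296 and 334 in Rad21-/- cells, and its 8 h ratio was 0.25 (interval 0.09 to 0.41) in wild-type and 0.23 (interval 0.05 to 0.41) in Rad21-/- cells. Rtp4, a transporter protein with antiviral activity, was at 282, 324 and 399 CPM in wild-type cells and 134, 161.8 and 272 in Rad21-/- cells. Eif2ak2 was at 60.9, 40.1 and 77.1 CPM in wild-type cells and 37.0, 28.8 and 49.002 in Rad21-/- cells, with 8 h ratios of 0.34 and 0.40. These 3 genes and Bst2 were within 2-fold at 8 h in wild-type cells, and in Rad21-/- cells so were all but Rtp4 (1.03). Nearer to the member median, Tor3a, an ATPase of the endoplasmic reticulum, was at 112.8, 106.1 and 332 CPM in wild-type cells and 63.1, 54.5 and 187 in Rad21-/- cells, with 8 h ratios of 1.56 and 1.57.

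The responses of the genotypes were then set side by side, since they use separate untreated samples. The difference is the log2 ratio of LPS over untreated in Rad21-/- cells minus that in wild-type cells, with an interval from the 4 counts. At 2 h it was above 0 in 25 of 33 members that passed in both genotypes, with a median of 0.24, and at 8 h in 26 of 42, with a median of 0.12. The median ratio of all genes tested was -0.11 in wild-type and -0.03 in Rad21-/- cells at 2 h, and -0.24 and -0.02 at 8 h. The median gene thus also had the higher ratio in Rad21-/- cells at both times. The count of differences above 0 was not taken over all genes. On the scale of total UMIs the summed 8 h ratios of the genotypes, 1.36 in wild-type and 1.37 in Rad21-/- cells, were nearly the same. When scaled by the median ratio of all genes they were 1.598 and 1.39, so that which genotype had the larger summed ratio turned on the scaling, and the differences below, on the scale of total UMIs, carry that shift. Single members departed on either side.

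At 8 h the interval of the difference lay above 0 for 11 of 42 members and below 0 for 4. At 2 h it lay above 0 for 5 of 33 and below 0 for 0. The largest 8 h differences above 0 were those of Zbp1, by 1.84 (interval 1.33 to 2.34), Oas3, by 1.25 (interval 0.75 to 1.75), Oasl2, by 1.05 (interval 0.48 to 1.62), Slfn2, by 1.04 (interval 0.69 to 1.38), and Ifi44, by 1.03 (interval 0.19 to 1.86). These were genes with low untreated ratios between the genotypes, and both measures share the untreated samples. Smaller 8 h ratios in Rad21-/- cells were seen for Mndal, by -1.30 (interval -1.59 to -1.002), Daxx, by -1.04 (interval -1.75 to -0.32), and Ms4a6b, by -0.79 (interval -1.196 to -0.39). For Samd9l, a restriction factor of poxviruses, the difference was -0.70 (interval -1.27 to -0.13). Ifi204, the neighbour of Mndal, differed by -0.14 (interval -0.57 to 0.30), and its interval included 0. At 2 h the difference for Slfn2 was 1.67 (interval 1.32 to 2.02) and for Ifih1 0.99 (interval 0.14 to 1.85).

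**Figure D4:**
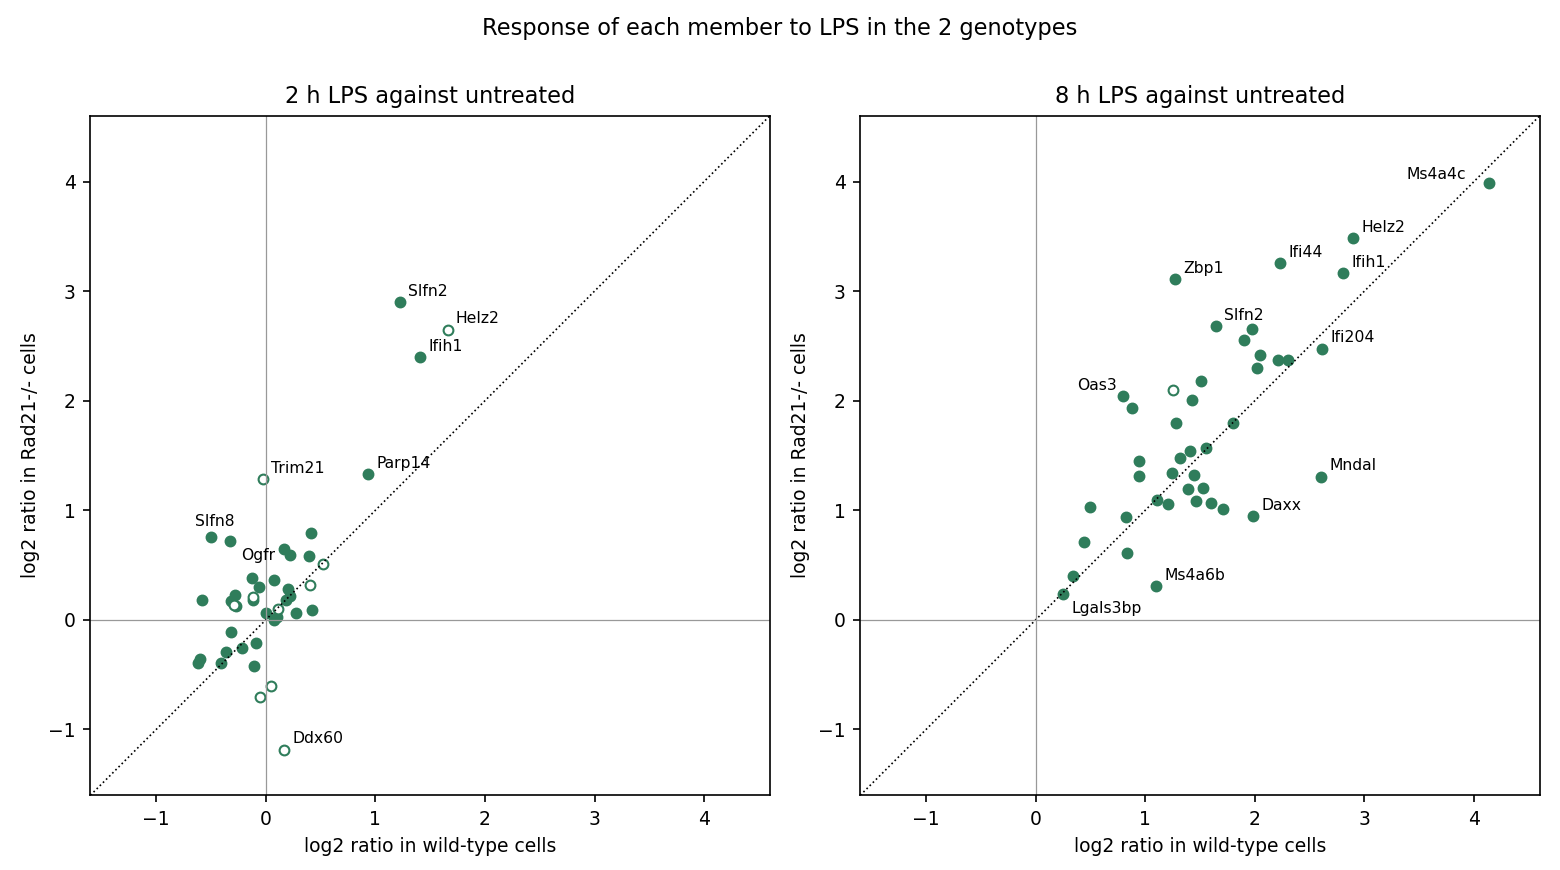
Log2 ratio of LPS over untreated CPM for each member in wild-type (horizontal axis) and Rad21-/- cells (vertical axis), at 2 h (left) and 8 h (right), with open circles for genes below 50 UMIs in either comparison and a dotted line where the genotypes are equal. Zbp1 lies above the line at 8 h (1.27 in wild-type and 3.11 in Rad21-/- cells), and Mndal, Daxx and Ms4a6b lie under it.

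Between genotypes at 8 h, 16 of 43 members were at least 2-fold lower in Rad21-/- cells and 0 at least 2-fold higher, where 4.91% of all genes were at least 2-fold lower and 7.65% higher. The median of the members was -0.87, and that of all genes was 0.20, so that relative to the median gene the members were lower still. All 43 were lower by some amount, beside 35.1% of all genes. When the samples were scaled by the median ratio of all genes instead of total UMIs, 24 members were at least 2-fold lower. The share over all genes was not taken on that scale.

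The lowest ratios at 8 h were in Daxx (-2.33, interval -2.74 to -1.94), Helz2 (-2.31, interval -2.798 to -1.85), Ms4a4c (-2.04, interval -2.26 to -1.82), Mndal (-1.93, interval -2.07 to -1.79) and Ifi204 (-1.78, interval -1.94 to -1.61), 4 of which are nuclear and DNA-associated genes. In that role list 5 of 6 were at least 2-fold lower, with Phf11d at -1.501 and Sp100, the one within 2-fold, at -0.95. Of the RNA sensors 0 of 5 were at least 2-fold lower at 8 h, after 3 of 5 that passed untreated and 3 of 4 at 2 h. Of the double-stranded RNA effectors 0 of 7 were, after 2 of 6 and 2 of 5. The lowest 8 h ratios of these lists were those of Dhx58 (-0.87) and Oasl2 (-0.98), which relative to the median gene were -1.08 and -1.18, past 2-fold. The differences between role lists were not tested. The highest ratios were those of Oas3 (-0.42, interval -0.67 to -0.17), Ddx58 (-0.46, interval -0.72 to -0.21), Slfn2 (-0.47, interval -0.61 to -0.34), Oas1a (-0.53, interval -0.83 to -0.23) and Lgals3bp (-0.54, interval -0.69 to -0.38), all below 0. Oas1a, a synthetase, was at 73.3, 78.5 and 141 CPM in wild-type cells and 39.4, 40.1 and 98.003 in Rad21-/- cells.

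**Figure D5:**
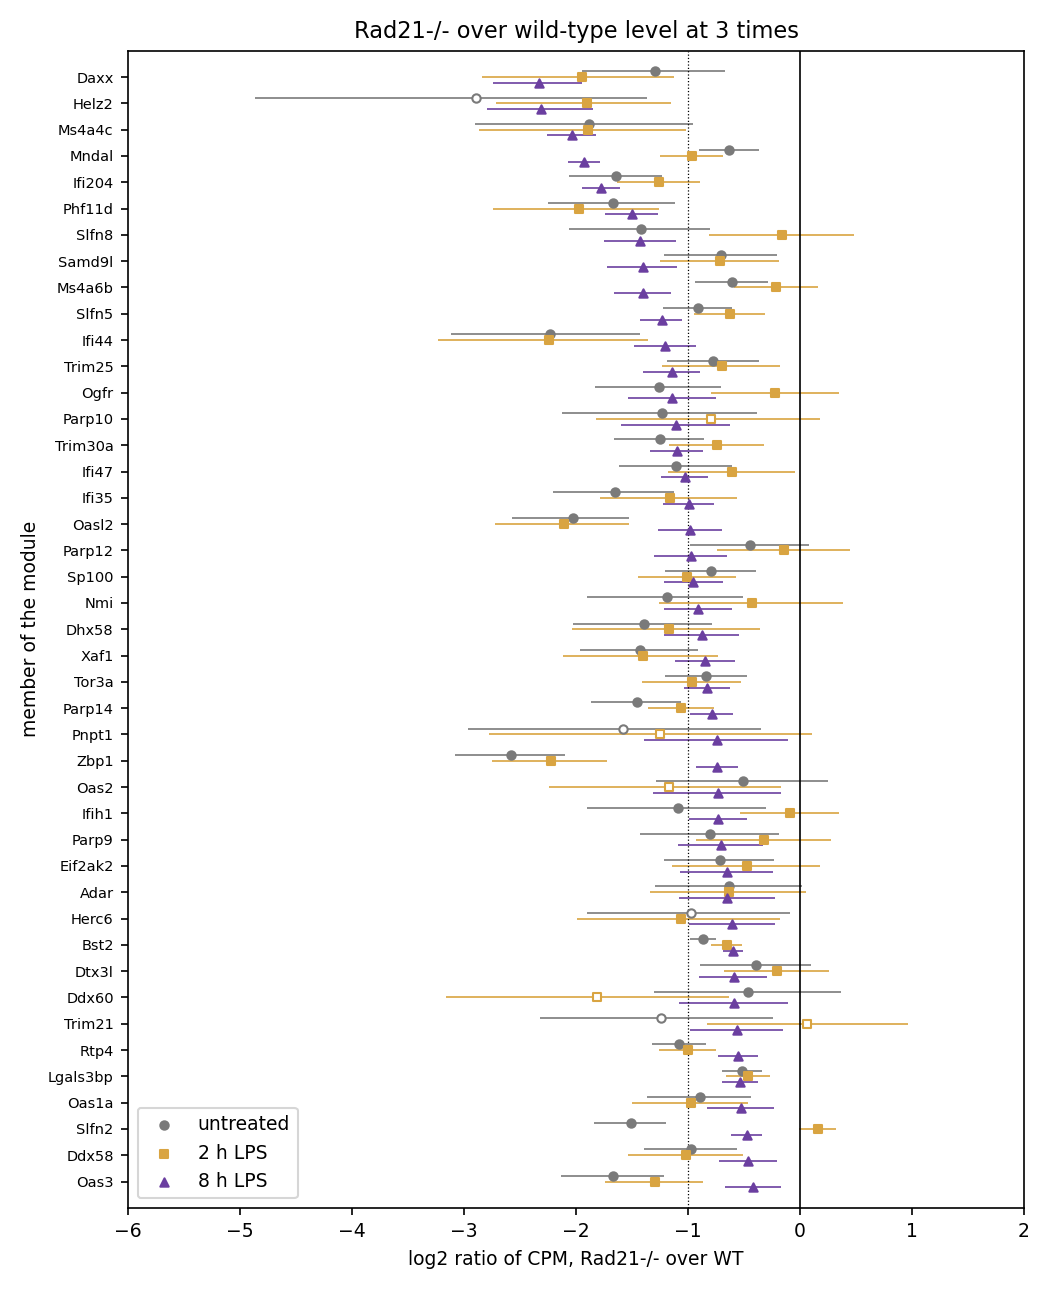
Log2 ratio of CPM of Rad21-/- over wild-type cells (horizontal axis) for each member, ordered by the ratio at 8 h, with circles for untreated, squares for 2 h and triangles for 8 h. Lines are 95% counting intervals, open symbols mark genes under 50 UMIs over both samples, and the dotted line is 2-fold lower. Of the members that passed, only Slfn2 at 2 h lies above 0.

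At 8 h, Rad21-/- cells had passed the untreated wild-type level for 35 of 43 members, a count that was not taken over all genes. The 8 that had not were Oasl2, Eif2ak2, Daxx, Bst2, Rtp4, Ogfr, Lgals3bp and Ms4a6b. Of the cells themselves, 40 of 222 Rad21-/- cells at 8 h had a module share under the untreated wild-type median. In wild-type cells at 8 h, 1 of 253 did.

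A level in a pooled sample can differ because fewer cells carry a transcript or because each carrying cell has fewer UMIs, and single cells allow the parts to be separated. The log2 ratio of mean UMIs per thinned cell was split into the ratio of the shares of cells with a UMI and the ratio of UMIs per carrying cell. For 8 h against untreated, the part of the share had a median over the 43 members of 1.10 and the part of the carrying cells 0.29 in wild-type cells, and 1.42 and 0.16 in Rad21-/- cells. The part of the share was the larger for 41 and 42 of 43 members. Between genotypes it was the larger for 39 members untreated, 38 at 2 h and 37 at 8 h. The same counts were not taken over all genes. At full depth, with mean CPM per cell split in place of mean UMIs, the count between genotypes at 8 h was 8. At 8 h the median cell held 7043 UMIs in Rad21-/- and 5780 in wild-type cells, and the part of depth in that count was not tested. For members with about 1 UMI per carrying cell the second part can hardly move, so these counts describe transcripts at this depth and not transcription itself.

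The median share of thinned cells with a UMI, over the members, was 21.5% untreated, 20.0% at 2 h and 50.4% at 8 h in wild-type cells. In Rad21-/- cells it was 10.5, 11.2 and 32.3%. The widest spans from untreated Rad21-/- to 8 h wild-type cells were those of Ifi204, from 11.8 to 92.4%, and Ms4a4c, from 3.18 to 81.2%. Bst2 was in 84.1 to 99.6% of thinned cells in every sample, so that its differences lay in the number of UMIs per cell. Among Rad21-/- cells at 8 h, Ifi204 was in 53.2%.

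Some members lie next to each other in the genome (RefSeq, GRCm38.p6). Ifi204 and Mndal lie together on chromosome 1 between 173747293 and 173880382, and their genotype ratios at 8 h were -1.78 and -1.93. Ms4a4c and Ms4a6b lie on chromosome 19 between 11404717 and 11530403, with ratios of -2.04 and -1.40. Slfn5, Slfn8 and Slfn2 lie in a row on chromosome 11 from 82951349 to 83070678, and their ratios were -1.24, -1.43 and -0.47. In the Schlafen row Slfn2 was thus the nearest to 0. The synthetases Oas2, Oas3 and Oas1a lie on chromosome 5 from 120730333 to 120907544, with ratios of -0.73, -0.42 and -0.53. Parp14, Dtx3l and Parp9 lie on chromosome 16 from 35831892 to 35972621, with ratios of -0.79, -0.59 and -0.71. Members of such families resemble each other in sequence, and reads that fit more than 1 gene were not counted by the authors.

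Within a sample, members varied together only weakly from cell to cell. Over the thinned cells of a sample, the Pearson correlation of a member's UMIs with the summed UMIs of the other members had a median over the 43 genes of between 0.0462 in untreated Rad21-/- and 0.141 in 2 h wild-type cells. The highest value was that of Mndal in wild-type cells at 8 h, 0.355 over 224 cells. The correlation of the module's sum with that of the 13 core antiviral genes was 0.319, 0.293 and 0.476 over 191, 160 and 224 wild-type cells untreated, at 2 h and at 8 h. The same correlation in Rad21-/- cells was 0.236, 0.149 and 0.567 over 220, 152 and 201 cells. Cells of a sample share their culture and pools, and counts this sparse weaken a correlation.

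Other genes of the interferon pathway set these values in context. Ifnb1, the gene of interferon beta, was listed at 0 UMIs in untreated and 8 h samples and was at 45.9 CPM in wild-type and 1.602 in Rad21-/- cells at 2 h, the latter from 2 UMIs. In wild-type cells at 2 h the module took 0.516% (interval 0.489 to 0.544) of the UMIs of the 34 cells with a UMI of Ifnb1 and 0.506% (interval 0.492 to 0.521) of the others, and these overlap. Irf7, a factor that amplifies the interferon response, was at 488, 289.8 and 871 CPM in wild-type cells and 111, 78.5 and 337 in Rad21-/- cells. Stat2, a subunit of the factor that binds the response element, was at 85.8, 26.7 and 194 CPM in wild-type cells and 33.4, 17.6 and 81.9 in Rad21-/- cells. Both were lower at 2 h than untreated in each genotype. The sum of 14 interferon signalling genes was higher at 2 h than untreated, but the median of the list hardly moved. The log2 ratio of the sum over untreated was 0.32 (interval 0.22 to 0.42) in wild-type and 1.10 (interval 0.98 to 1.22) in Rad21-/- cells. The 12 genes that passed had a median of -0.02 in wild-type and 0.05 in Rad21-/- cells, with 6 higher and 6 lower in each. The highest single ratio was 6.36 in wild-type and 8.88 in Rad21-/- cells. Of the 12 that passed, 3 were at least 2-fold higher and 1 lower in wild-type cells, beside 3.33 and 3.08% of all genes. In Rad21-/- cells 2 of 12 were higher and 0 lower, beside 3.39 and 1.94%.

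Over the 14 interferon signalling genes, 3 of 11 that passed were at least 2-fold lower in untreated Rad21-/- than in wild-type cells, 4 of 11 at 2 h and 5 of 13 at 8 h, and 0 were at least 2-fold higher at any of the 3 times. Over all genes 3.98, 4.62 and 4.91% were at least 2-fold lower. The summed log2 ratio of the signalling genes was -1.02 (interval -1.14 to -0.90) untreated, -0.24 (interval -0.35 to -0.14) at 2 h and -0.98 (interval -1.05 to -0.91) at 8 h, so that at 2 h it lay nearer to 0 than that of the module. Their median ratio at 2 h was -0.60, against -0.96 for the module's members. Single signalling genes ran from -4.84 to 0.47 there, so the sum rests on few genes. Over the 13 core antiviral genes (Isg15 among them), the summed log2 ratio of Rad21-/- over wild-type cells was -1.66 (interval -1.75 to -1.56) untreated, -1.47 (interval -1.53 to -1.41) at 2 h and -1.61 (interval -1.64 to -1.58) at 8 h. For the 14 interferon-inducible GTPases, which act on vacuoles of intracellular microbes, it was -1.11 (interval -1.34 to -0.88), -1.012 (interval -1.25 to -0.78) and -1.42 (interval -1.501 to -1.35). The module's own ratios of -1.006, -0.71 and -0.99 were nearer to 0 than those of the core genes at each time, and the intervals did not overlap. The summed 8 h ratio over untreated in wild-type cells was 2.85 (interval 2.797 to 2.90) for the core genes, 3.24 (interval 3.10 to 3.38) for the GTPases and 1.36 for the module.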

How the data were processed

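MARS-seq libraries were prepared from single wild-type and Rad21-/- bone marrow-derived macrophages, untreated or after LPS. The authors mapped reads with GEMTools 1.7.0 to GRCm38.p4 with Gencode M8, removed wells under 60% mapped or over 15% spike-in reads or with very many reads, collapsed UMIs within an edit distance of 2, counted unambiguous reads and deposited raw UMI counts per gene and cell. Methods state that genes in under 5% of cells were discarded, yet the matrix of 18429 genes has 5709 under that share.

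Wells with more than 25000 UMIs were left out (17). UMIs were summed per sample and scaled to 1000000 (CPM); because reads mark transcript ends, no length scaling was applied. Ratios carry exact conditional intervals, shares Clopper-Pearson intervals and differences of ratios intervals from inverse counts, at 95%, for counting error only. Counts of 0 entered ratios at 3 counts. Genes needed 50 UMIs over both samples, and 2-fold was the threshold. Thinning drew 3800 UMIs per cell without replacement (seed 1); between 21 and 47 cells per sample were shallower and left out. No 2 wells had identical counts. With 1 sample per group no count model was run. No doublet caller was run on singly sorted cells.

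The members and lists were chosen with earlier results of these data known. Values are given for the 5 members furthest up and the 5 furthest down in each comparison and the 2 with the most UMIs in each role list, and all other names in the text were chosen after their values were seen. Alternatives were all wells, mean CPM per cell, median-ratio scaling, thinning, a minimum of 10 UMIs, no minimum and leaving out each pool. Names were matched to RefSeq GRCm38.p6 (43 of 43). Ratios were tested on simulated data. Python 3.11.15, numpy 2.4.6, pandas 2.3.3, scipy 1.17.1 and matplotlib 3.10.9 were used.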

Additional observations from a re-analysis of the deposited data

Results flagged for a closer look

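For a pair of members the 2 h ratios of the genotypes had opposite signs, and their difference was not tested because each group is 1 sample. The log2 ratio of 2 h over untreated for Slfn8, at 51.9, 36.7 and 181 CPM in wild-type cells and 19.4, 32.8 and 67.4 in Rad21-/- cells, was -0.50 in wild-type and 0.76 in Rad21-/- cells, a difference of 1.26 (interval 0.40 to 2.11). For Ogfr, the opioid growth factor receptor, at 59.5, 47.6 and 105.4 CPM in wild-type cells and 24.9, 40.9 and 47.8 in Rad21-/- cells, it was -0.32 and 0.72, a difference of 1.04 (interval 0.27 to 1.80). The wild-type intervals of both genes included 0, and with the deep wells kept the wild-type ratios were 0.43 and 0.32, so that the opposite directions held only without those wells.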

How the results depend on the processing

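No paired analysis was possible because with 1 sample per group the results come from no test; genotypes were compared inside library pools as values only. Directions of the summed ratios held under every alternative run. With all wells, the summed log2 ratio was 0.252 for 2 h against untreated in wild-type cells and -0.868 for Rad21-/- over wild-type cells at 2 h, 26 members were at least 2-fold lower in that comparison, and the module took 0.571, 1.25 and 0.636% of UMIs in wild-type cells at 2 and 8 h and Rad21-/- cells at 8 h. Mean CPM per cell gave 0.605% for the last sample and -1.03 for its genotype ratio. Median-ratio scaling gave 0.190 and 1.60 for 2 and 8 h in wild-type cells and -1.20 for the genotypes at 8 h. With a minimum of 10 UMIs, or none, 5 members were at least 2-fold higher and 1 lower at 2 h in Rad21-/- cells. Thinning gave 13 members lower untreated and 9 at 2 h, by construction with fewer UMIs and so fewer members past the minimum, and median shares of 21.5, 20.0 and 50.4% for wild-type samples and 10.5, 11.2 and 32.3% for the Rad21-/- ones. The share of all genes past 2-fold was not taken under any alternative. Leaving out each library pool in turn, the summed ratio lay between 0.0204 and 0.127 for 2 h against untreated in wild-type cells, 1.29 and 1.39 for 8 h against untreated in wild-type cells, 0.326 and 0.488 for 2 h in Rad21-/- cells, 1.31 and 1.42 for 8 h in Rad21-/- cells, -1.05 and -0.971 for the genotypes untreated, -0.788 and -0.611 for the genotypes at 2 h and -1.04 and -0.965 for the genotypes at 8 h. The module share lay between 0.469 and 0.501, 0.487 and 0.524, 1.22 and 1.24, 0.231 and 0.242, 0.300 and 0.335, 0.593 and 0.626% in wild-type cells untreated, at 2 h and 8 h and Rad21-/- cells in the same order. Members at least 2-fold lower in wild-type cells at 2 h numbered 0 to 1, those higher at 8 h 32 to 35 in each genotype, and those lower in Rad21-/- than in wild-type cells 17 to 22 untreated, 12 to 18 at 2 h and 15 to 20 at 8 h. Genes with few UMIs limit the precision: 10 of 43 members fell below 50 UMIs in at least 1 of 9 comparisons.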
